A study of Mus musculus with 4 samples.

Results

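CC chemokines were examined in the liver of mice after an overdose of acetaminophen (APAP), the drug also known as paracetamol. The genes were chosen by name as the CC chemokines Ccl2, Ccl3, Ccl4, Ccl5, Ccl6, Ccl7, Ccl8, Ccl9, Ccl12 and Ccl24. The rule uses names and no measured value, but the genes were proposed with earlier results of these data known. Of these 10 genes, 9 had a row among the 27027 entries of the count table, and Ccl8 was not analysed here. Hepatic RNA was sequenced from the 3′ end of polyadenylated mRNA by massive analysis of cDNA ends (MACE), a method in which a transcript yields tags near its poly(A) tail, so that reads scaled to a library of 1000000 counted reads (RPM) can be set side by side between genes without division by length.

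All mice were male C57BL/6 (C57BL/6J in the study's methods), 9 to 12 weeks old and fasted for 10 h overnight before an intraperitoneal injection. Control mice were given 0.9% NaCl solution and APAP mice 300 mg/kg APAP, and livers were taken at 24 h or 48 h. Each of the 4 groups was 1 library, made from the RNA of 6 control mice or 7 APAP-treated mice mixed at equal shares. There was therefore 1 library per group, no replicate check and no p-value. The 95% intervals below are exact intervals of the read counts, they cover counting error only, and they compare libraries and not mice. Paired values below are given with 24 h first.

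The libraries held between 4859661 and 5698778 counted reads, so that 1 to 3 reads of a gene lie at or below a floor of 3 reads, which was between 0.526 and 0.617 RPM. A fold is the ratio of counts scaled by DESeq2 size factors, which were between 0.880 and 1.17. Where the control count was 0 it was set to the floor of 3 reads and the fold is a lower bound. An APAP count of 0 was set to the floor in the same way and gave an upper bound. Counts above 0 but under the floor were also raised to 3 reads for calls at 5-fold and for medians. Values called a ratio below keep such counts as read. A bound itself leaves out counting error, which the limit of the interval given beside it covers. Scaling by library totals in place of the size factors raised every log2 fold by 0.19 at 24 h and by 0.27 at 48 h. Markers of hepatocytes were found in every library, with 208729 to 254523 reads of Alb, the gene of albumin, a protein of hepatocytes. In whole liver, more cells of a type and more RNA per cell cannot be told apart, and this holds for every level below.

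CC chemokines are small secreted proteins that carry a pair of adjoining cysteines near their N-terminus and guide leukocytes along a gradient by binding to G protein-coupled receptors on their surface. Ccl2, Ccl7, Ccl8 and Ccl12 form the monocyte chemoattractant group, whose main receptor CCR2 brings monocytes from the bone marrow and blood into inflamed tissue. In injured liver, Kupffer cells, the resident macrophages, and arriving monocytes are known sources of such proteins, and CCR2-dependent monocyte recruitment is a known feature of APAP injury.

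All members except Ccl24 lie on chromosome 11 (GENCODE release M21 annotation of GRCm38, the build named by the submitters as mm10) in a pair of clusters. The first cluster spans 81.2 kb and holds Ccl2 (chr11:82035571-82037453), Ccl7 (chr11:82045712-82047525), Ccl12 (chr11:82101845-82103400) and Ccl8 (chr11:82115185-82116799), all on the plus strand. The second cluster starts 1409 kb further on, spans 138.9 kb and holds Ccl5 (chr11:83525778-83530518), Ccl9 (chr11:83572919-83578636), Ccl6 (chr11:83587882-83593087) and Ccl3 (chr11:83647844-83649355) on the minus strand and Ccl4 (chr11:83662584-83664683) on the plus strand. Ccl24 lies on chromosome 5 (chr5:135569937-135573049, minus strand). Ccl6, Ccl9 and Ccl24 have 4 annotated exons and the other members 3. Ccl2 overlaps Gm17268 on the opposite strand, which had at most 1 read per library, and Ccl6 overlaps E230016K23Rik, which had 1 to 3 reads. None of the 10 members shared 100 bases of its last 300 bases at 95% identity or more with another transcript.

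RefSeq promoter windows of GRCm38.p6 were matched for 5 of the 10 members, namely Ccl3, Ccl6, Ccl8, Ccl9 and Ccl12. The 250 bases before the annotated start site are shown for Ccl6 (chr11:83593088-83593337, minus strand) and Ccl9 (chr11:83578637-83578886, minus strand), because these neighbours, 9.245 kb apart, gave most of the CC chemokine reads and differed in their response to APAP. They are read in the direction of transcription, and capitals mark the motif matches named below.
Ccl6: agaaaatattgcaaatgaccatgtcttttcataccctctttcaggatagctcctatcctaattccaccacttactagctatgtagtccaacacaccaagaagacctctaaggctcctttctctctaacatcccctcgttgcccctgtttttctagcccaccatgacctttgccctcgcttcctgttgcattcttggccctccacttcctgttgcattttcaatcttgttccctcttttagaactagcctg
Ccl9: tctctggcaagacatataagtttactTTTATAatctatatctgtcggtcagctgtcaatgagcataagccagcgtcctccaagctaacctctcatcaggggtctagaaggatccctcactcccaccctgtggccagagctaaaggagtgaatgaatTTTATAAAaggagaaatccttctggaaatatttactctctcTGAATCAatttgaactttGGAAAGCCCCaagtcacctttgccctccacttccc

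Motifs for 6 factors or elements were searched on both strands in the windows of 300 bases, from 250 before to 50 after the start. They were NF-kB (GGGNNTTNCC), AP-1 (TGANTCA), C/EBP (TTGCNNAA), PU.1 (GAGGAA), STAT (TTCNNNGAA) and the TATA box (TATAAA). Of 32851 promoters of the same length, 4.79%, 7.81%, 10.8%, 28.3%, 8.30% and 13.6%, in that order, held a match. The Ccl9 window held an NF-kB match on the minus strand with its first base at -35 from the start site, an AP-1 match at -53 and TATA matches at -92, -94 and -224, of which the first pair overlap. The Ccl6 window held none of the letters searched. Ccl12 and Ccl8 held a TATA match at -31 and -32 and a PU.1 match at -130 and -240, and Ccl3 held a PU.1 match at -33. In a local alignment of the Ccl6 and Ccl9 windows, 59 of 74 aligned columns were identical (79.7%, 7 columns with a gap), and the stretch ran from -59 to 15 in Ccl6 and from -18 to 49 in Ccl9. These matches are descriptions of letters and not of bound factors.

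The 3′ ends, from which MACE reads come, also differed between members. The pentamer ATTTA is the core of AU-rich elements, which are known to shorten the life of many cytokine mRNAs. In the longest annotated 3′ untranslated region it occurred 5 times in 167 bases of Ccl12, 5 times in 409 bases of Ccl3, 2 times in 302 bases of Ccl4, 2 times in 435 bases of Ccl7 and 1 time in 275 bases of Ccl2. It occurred 4 times in 943 bases of Ccl6 and 5 times in 2465 bases of Ccl9, and not in Ccl5, Ccl8 or Ccl24. The density per kb was 29.9 in Ccl12 and 12.2 in Ccl3, against a median of 1.28 over 20659 coding genes, of which 66.3% held the pentamer. Sites of 30 bases with the pentamer in capitals are shown for Ccl2 (chr11:82037193-82037222, plus strand) and Ccl7 (chr11:82047242-82047271, plus strand), which had folds or bounds near or above 5, and for Ccl12 (chr11:82103325-82103354, plus strand) and Ccl3 (chr11:83648085-83648114, minus strand), which had the highest densities. All lie in the 3′ untranslated region, and the letters are those of the GENCODE transcripts.
Ccl2: tgatgccttaattaatattaaacttATTTA
Ccl7: tggtctttaagttattaatatttttATTTA
Ccl12: ATTTAaacaaacttgcttaaataatATTTA
Ccl3: gactcttcacttgaaattttATTTAATTTA

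The APAP libraries held more CC chemokine reads than the control libraries of the same time. The 9 members together had 415 reads in the 24 h control library, 509 in the 48 h control library, 767 in the 24 h APAP library and 790 in the 48 h APAP library. The summed level was 85.4, 98.0, 134.6 and 160.0 RPM in that order. The sum rose 1.38-fold (95% interval 1.23 to 1.56) at 24 h, then 1.36-fold (1.21 to 1.52) at 48 h. The sum was also 1.16-fold (1.01 to 1.32) higher in the later control library than in the earlier one.

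**Figure D1:**
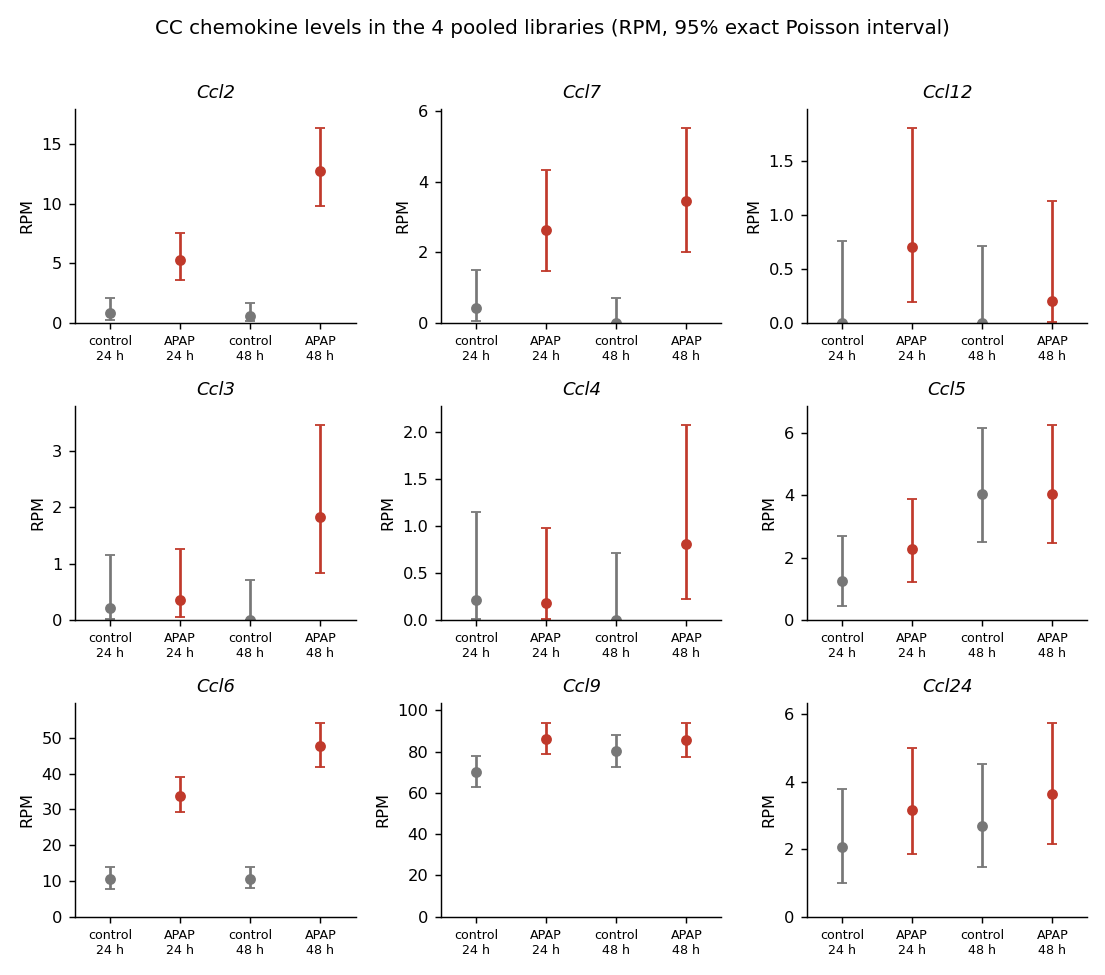
Level of each CC chemokine in the 4 pooled libraries, in RPM on an axis of its own that starts at 0, with 95% exact Poisson intervals (gray, control; red, APAP). The intervals of Ccl6 in both APAP libraries lay above those in both control libraries, as did those of Ccl2. Those of Ccl24 overlapped between APAP and control at both times. Those of Ccl9 overlapped at 48 h but not at 24 h (control 62.7 to 77.8 RPM, APAP 78.7 to 94.1 RPM).

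Counted by gene, 7 members had a fold at 24 h and 8 at 48 h, since the others had 3 reads or fewer in both libraries. At 24 h, 1 member, Ccl2, was at least 5-fold higher, the threshold used in the study, against 0.795% of 16095 genes tested. At 48 h it was again 1 member, Ccl2, against 0.474% of 16018 genes. The interval lay above 1 for 3 of 7 members at 24 h (Ccl2, Ccl6 and Ccl7, and Ccl9 as well with library totals), against 13.0% of all genes tested, and for 4 of 8 at 48 h (the same genes and Ccl3), against 12.2%. It lay below 1 for 0 members at both times, against 14.8% and 15.3% of all genes. The median log2 fold of the members was 0.70 at 24 h and 0.81 at 48 h, and that of all genes tested was -0.0015 and 0.021. With the control library of the other time the members' median was 0.083 at 24 h and 1.38 at 48 h.

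**Figure D2:**
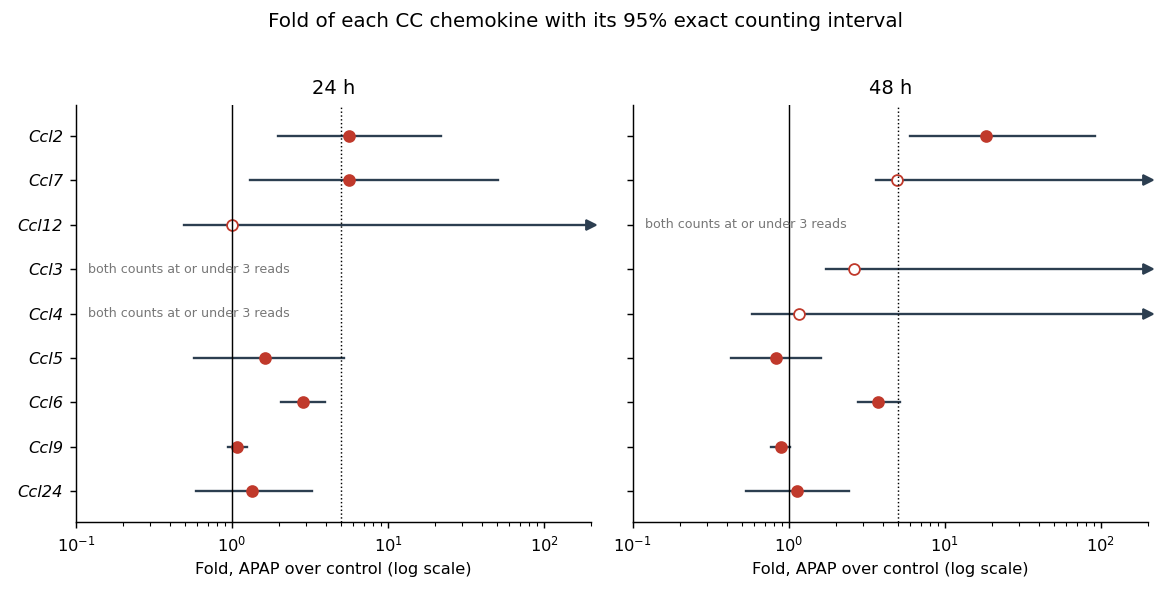
Fold of each CC chemokine, APAP over the control library of the same time, on a log axis, with 95% exact counting intervals. Open circles are lower bounds against a control count of 0 set to 3 reads, arrows mark intervals without an upper limit, the solid line is 1 and the dotted line 5. The point of Ccl2 lay past 5 at both times. For Ccl7 the 24 h point is the ratio of counts (5.62, or 3.75 with the floor) and the 48 h point is a bound (at least 4.96), so the times cannot be compared from the points.

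Among the monocyte chemoattractants, Ccl2 and Ccl7 were higher with APAP at both times, and Ccl12 was barely detected. Ccl2, the main ligand of CCR2, had 4 reads (0.823 RPM) in the 24 h control library and 3 reads (0.578 RPM) in the 48 h control library. It had 30 reads (5.26 RPM) in the 24 h APAP library and 63 reads (12.8 RPM) in the 48 h APAP library. Both APAP libraries lay above both control libraries, and the later APAP library lay above the earlier one. The 24 h fold was 5.62 (1.98 to 22.0) and the 48 h fold 18.4 (6.00 to 91.4). The 48 h control count lies at the floor of 3 reads. At 24 h the lower limit lay below the 5-fold threshold, whereas at 48 h the whole interval lay above it. The later APAP library had 2.31 times (1.47 to 3.70) the level of the earlier one, and the control libraries differed by 0.707-fold (0.104 to 4.18). The ratio of the fold at 48 h to that at 24 h was 3.27 with an interval from 0.512 to 23.5, which includes 1, with 4 and 3 reads in the control libraries.

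Ccl7, a second CCR2 ligand that lies 10.1 kb from the start of Ccl2, had 2 reads in the 24 h control library and 0 in the 48 h control library. It had 15 reads (2.63 RPM) in the 24 h APAP library and 17 reads (3.44 RPM) in the 48 h APAP library, again above both control libraries. The ratio at 24 h was 5.62 (1.31 to 50.6), which became 3.75 with the control count set to 3 reads. At 48 h Ccl7 was at least 4.96-fold higher, with a lower limit of the interval of 3.61. The APAP libraries differed by 1.25-fold (0.586 to 2.68), which does not exceed counting error.

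Ccl12, a CCR2 ligand of the mouse, had 0 reads in both control libraries, 4 reads in the 24 h APAP library and 1 read in the 48 h APAP library. A difference was not detectable at this depth, since 4 reads set against the floor of 3 reads gave a bound of 0.999-fold after scaling, with a lower limit of 0.495. Together Ccl2, Ccl7 and Ccl12 had 6 and 3 reads in the control libraries and 49 and 81 in the APAP libraries. The fold of this sum was 6.12 (2.62 to 17.5) at 24 h, then 23.6 (7.80 to 117) at 48 h, and it rose 1.82-fold (1.26 to 2.65) between the APAP libraries.

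The summed reads of monocyte and macrophage genes moved in the same direction, though not every gene did at 24 h. The 9 markers of monocytes and infiltrating macrophages summed to 327 and 397 reads in the control libraries and to 890 and 1403 in the APAP libraries, a fold of 2.04 (1.79 to 2.32) at 24 h, then 3.09 (2.76 to 3.46) at 48 h. The interval lay above 1 for 4 of 9 of them at 24 h, against 13.0% of all genes tested, and 8 of 9 at 48 h, against 12.2%, with Csf1r as the exception at 48 h, and none was at 0. At 24 h Csf1r (0.995-fold) and Cx3cr1 (0.983-fold) did not rise. Lyz2 alone gave 384 of the 890 and 659 of the 1403 reads. Ly6c2, a marker of inflammatory monocytes, had 3, 5, 21 and 33 reads in the 24 h and 48 h controls, then the 24 h and 48 h APAP libraries. Reads of Ccl2 per read of the 9 markers changed 2.76-fold (0.960 to 10.8) at 24 h, then 5.94-fold (1.92 to 29.7) at 48 h, a ratio that is free of any scaling between libraries. The part of these cells in the level of Ccl2 was not tested.

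Of the genes for MIP-1 and RANTES, Ccl3 and Ccl4 stood near the detection limit. Ccl3 (MIP-1α), a ligand of CCR1, had 1 and 0 reads in the control libraries, 2 in the 24 h APAP library and 9 (1.82 RPM) in the 48 h APAP library. The later APAP library alone stood apart, at least 2.62-fold above the control library with a lower limit of 1.73. Its ratio to the earlier APAP library was 4.95 (1.03 to 47.1), or 3.30 with the floor. Ccl4 (MIP-1β), a chemoattractant of macrophages and NK cells, had 1, 0, 1 and 4 reads in the 24 h and 48 h controls, then the 24 h and 48 h APAP libraries. At 48 h its 4 reads set against the floor gave a bound of 1.17-fold, with a lower limit of the interval of 0.577, so that no difference was detectable. Both genes had 3 reads or fewer in both 24 h libraries, so no fold is given there.

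Ccl5 (RANTES), which T cells, NK cells and macrophages are known to make, did not separate the APAP libraries from the controls. It had 6 reads (1.23 RPM) in the 24 h control library and 13 (2.28 RPM) in the 24 h APAP library, against 21 (4.04 RPM) in the 48 h control library and 20 (4.05 RPM) in the 48 h APAP library. The 24 h control library was lowest and the 48 h libraries were nearly equal in RPM. The 24 h fold was 1.62 (0.576 to 5.21) and the 48 h fold 0.833 (0.428 to 1.61), which library totals brought to just above 1. The interval that excluded 1 was that between the control libraries, 3.30-fold (1.29 to 9.996) higher at 48 h. Ccl5 was the 1 member of 5 with a fold whose interval lay above 1 between the control libraries, against 9.19% of 15459 genes tested. Set against the control library of the other time, Ccl5 had a fold of 0.492 at 24 h and 2.75 at 48 h, so its direction depends on the control chosen. The 9 markers of T and NK cells had 38 and 31 reads in the control libraries, a change of 0.769-fold (0.463 to 1.27), and 31 and 34 in the APAP libraries. Cd4 gave 20 of these reads in each control library and 20 and 19 in the APAP libraries, so that the sums rest largely on 1 gene. Cd8a was at 0 in all 4 libraries.

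Most CC chemokine reads came from Ccl9 and Ccl6, neighbouring genes whose proteins have an extended N-terminus and bind CCR1. Ccl9 (MIP-1γ) had 340 reads (70.0 RPM) and 416 reads (80.1 RPM) in the control libraries and 491 reads (86.2 RPM) and 422 reads (85.5 RPM) in the APAP libraries. The 24 h fold was 1.08 (0.940 to 1.25) and the 48 h fold 0.887 (0.773 to 1.02), and both intervals include 1. Scaling by library totals gave 1.23 (1.07 to 1.42) at 24 h, above 1, and 1.07 (0.929 to 1.22) at 48 h. Against the control of the other time the folds were 0.938 and 1.02. Of the members it had the narrowest intervals, and with these size factors a change of more than 1.25-fold at 24 h or more than 1.02-fold upward at 48 h lay outside them, counting error alone considered.

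Ccl6 (C10), which macrophages and other myeloid cells are known to make, had 51 reads (10.5 RPM) and 55 reads (10.6 RPM) in the control libraries and 193 reads (33.9 RPM) and 236 reads (47.8 RPM) in the APAP libraries. The control libraries were nearly equal, with a ratio of 1.02, and both APAP libraries lay well above them. The 24 h fold was 2.84 (2.07 to 3.94) and the 48 h fold 3.75 (2.79 to 5.13), with a rise of 1.35-fold (1.11 to 1.64) between the APAP libraries. Neither fold reached 5.

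The unequal change of the neighbours was also measured within each library, where no scaling enters. There were 0.150 and 0.132 reads of Ccl6 per read of Ccl9 in the control libraries and 0.393 and 0.559 in the APAP libraries. The ratio changed 2.62-fold (1.85 to 3.75) at 24 h, then 4.23-fold (3.04 to 5.95) at 48 h. It changed 0.881-fold (0.575 to 1.35) between the control libraries and rose 1.42-fold (1.12 to 1.80) between the APAP libraries. For Ccl2 per read of Ccl9 the change was 5.19-fold (1.80 to 20.4) at 24 h, then 20.7-fold (6.67 to 104) at 48 h. Reads of Ccl2 per read of Ccl6 changed 1.98-fold (0.653 to 8.08) at 24 h, which does not exceed counting error, and 4.89-fold (1.50 to 25.2) at 48 h.

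**Figure D3:**
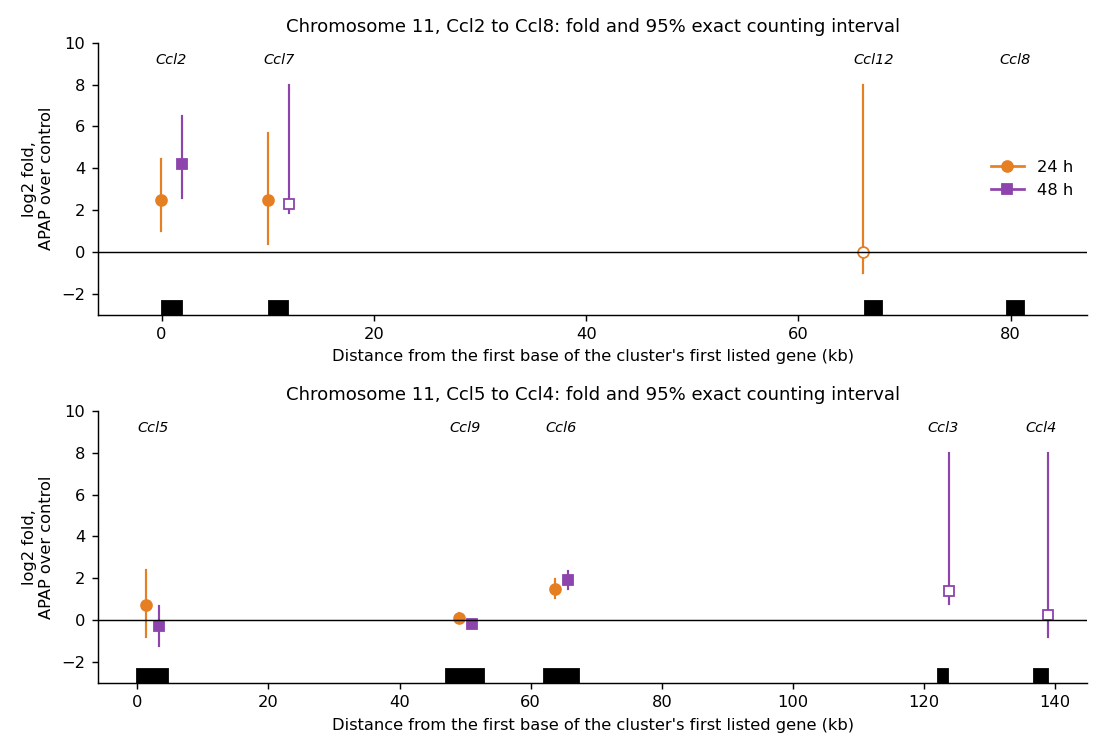
Log2 fold of the members on chromosome 11, APAP over control, at 24 h (circles) and 48 h (squares), against the distance in kb from the first gene of each cluster. Vertical lines are 95% exact counting intervals, cut at the top where they have no upper limit, open symbols are lower bounds, black blocks are the genes, and Ccl8 has no value. Neighbours differed, with Ccl6 at 3.75-fold and Ccl9 at 0.887-fold (1.07 with library totals) at 48 h.

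Macrophage markers were set beside this pair too. Reads of Ccl6 per read of the 9 monocyte and infiltrating macrophage markers changed 1.39-fold (0.988 to 1.98) at 24 h, then 1.21-fold (0.881 to 1.69) at 48 h, and both intervals include 1. Between the APAP libraries this ratio changed 0.776-fold (0.627 to 0.961), as the markers gained more than Ccl6. The 9 Kupffer cell markers summed to 1454 and 1448 reads in the control libraries and 1759 and 2352 in the APAP libraries, and none was at 0. The fold of the sum was 0.906 (0.845 to 0.972) at 24 h, then 1.42 (1.33 to 1.52) at 48 h. In RPM the sum was 299 in the 24 h control library and 309 in the 24 h APAP library, so the 24 h direction depends on the scaling. The markers did not move together. At 24 h the interval lay above 1 for 1 of 9 (Marco, 3.06-fold), against 13.0% of all genes tested. It lay below 1 for 2 (Clec4f, 0.534-fold, and C1qc, 0.689-fold), against 14.8%. At 48 h it lay above 1 for 6 of 9, against 12.2%, and below 1 for 0, against 15.3%. It included 1 for Clec4f, Timd4 and Adgre1 at 48 h. Reads of Ccl9 per read of the Kupffer cell markers changed 1.19-fold (1.02 to 1.40) at 24 h, then 0.625-fold (0.536 to 0.728) at 48 h, and 1.23-fold (1.04 to 1.45) between the control libraries, no less than the change at 24 h. The part of either cell type in the levels of Ccl6 and Ccl9 was not tested.

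The make-up of the CC chemokine reads shifted accordingly. Ccl9 made up 81.9% (exact binomial interval 77.9 to 85.5) and 81.7% (78.1 to 85.0) of the members' reads in the control libraries, and 64.0% (60.5 to 67.4) and 53.4% (49.9 to 56.9) in the APAP libraries. Ccl6 made up 12.3% (9.29 to 15.8) and 10.8% (8.24 to 13.8) in the control libraries, and 25.2% (22.1 to 28.4) and 29.9% (26.7 to 33.2) in the APAP libraries. The share of Ccl2 was 0.964% and 0.589% in the control libraries, and 3.91% (2.65 to 5.54) and 7.97% (6.18 to 10.1) in the APAP libraries. A lower share of Ccl9 does not mean a lower level, which was given above.

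**Figure D4:**
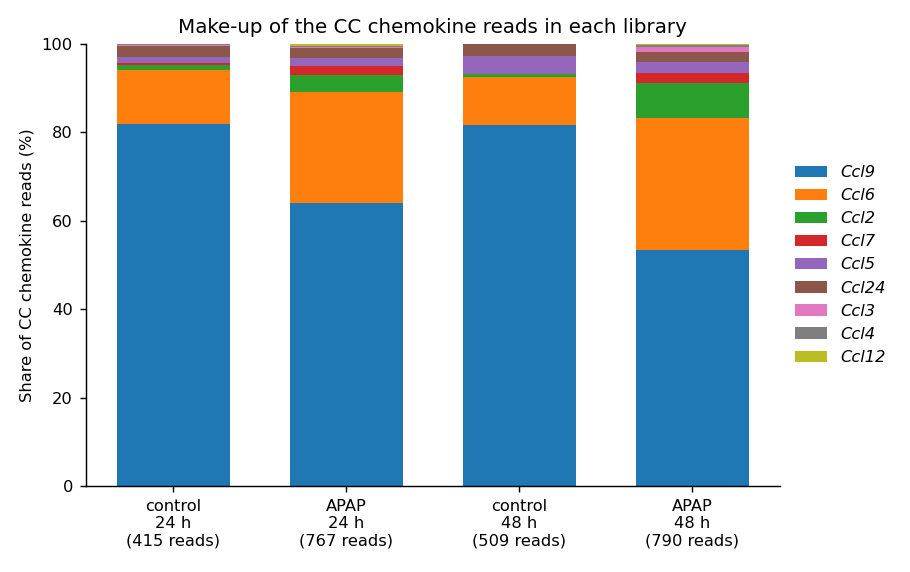
Share of each CC chemokine in the members' reads, in percent, for each library, with the number of reads below each bar. Ccl9 fell from 81.7% of the reads in the 48 h control library to 53.4% in the 48 h APAP library, and Ccl6 and Ccl2 took larger shares.

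Ccl24 (eotaxin-2), a ligand of CCR3 known to attract eosinophils, had 10 reads (2.06 RPM) and 14 reads (2.70 RPM) in the control libraries and 18 reads in each APAP library (3.16 RPM at 24 h and 3.65 RPM at 48 h). The levels lay close together, and the fold was 1.35 (0.590 to 3.27) at 24 h, then 1.12 (0.528 to 2.44) at 48 h. No difference was detectable at this depth, and changes above 3.27-fold at 24 h and 2.44-fold at 48 h lay outside the interval.

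Between the APAP libraries, 3 of the 9 members with a fold had an interval above 1 (Ccl2, Ccl3 and Ccl6), against 10.4% of 16358 genes tested. In the 48 h APAP library the order of levels was Ccl9, Ccl6, Ccl2, Ccl5, Ccl24, Ccl7, Ccl3, Ccl4 and Ccl12. Ccl5, Ccl24 and Ccl7, at 4.05, 3.65 and 3.44 RPM, did not differ beyond their counting intervals. In the control libraries Ccl9 and Ccl6 came first as well, and Ccl5 and Ccl24 stood above Ccl2.

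Other CC chemokines had 10 rows, of which 4 had more than 3 reads in a library. Ccl25, a chemokine of gut and thymus, had 34, 22, 41 and 25 reads and Ccl27a 22, 45, 48 and 42 reads in the 24 h and 48 h controls, then the 24 h and 48 h APAP libraries. Neither had an interval that excluded 1 against the control library of its time, with 0.903-fold (0.559 to 1.47) and 0.994-fold (0.538 to 1.85) for Ccl25 and 1.63-fold (0.968 to 2.84) and 0.816-fold (0.523 to 1.27) for Ccl27a. Ccl21a had 3, 0, 3 and 7 reads and was at least 2.04-fold higher at 48 h with a lower limit of 1.26, and Ccl27b had at most 5 reads. Ccl21a and Ccl27a have near-identical copies in the mouse, so their counts are uncertain.

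The receptors were measured as a list of 15 genes, of which 13 had a row and 10 had more than 3 reads in a library. Ccr2, the receptor of Ccl2, Ccl7 and Ccl12, had 3 and 6 reads in the control libraries and 15 and 27 in the APAP libraries. Its ratio was 3.75 (1.06 to 20.2) at 24 h, from 3 control reads, then 3.94 (1.59 to 11.7) at 48 h. Ccr1, a receptor of Ccl3, Ccl6 and Ccl9, had 0 and 1 reads in the control libraries and 8 and 7 in the APAP libraries. It was at least 2.00-fold higher at 24 h with a lower limit of 1.28. At 48 h it had a ratio of 6.12 (0.786 to 276), or 2.04 with the floor. Reads of Ccl2 per read of Ccr2 changed 1.50-fold (0.193 to 10.1) at 24 h, then 4.67-fold (0.901 to 30.4) at 48 h, and neither interval excludes 1.

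Ackr2 and Ackr4, scavenger receptors that take up chemokines without classical signalling, had fewer reads in the APAP libraries. Ackr2, which removes inflammatory CC chemokines, had 12 and 20 reads in the control libraries and 5 and 7 in the APAP libraries. The folds were 0.312 (0.0862 to 0.952) at 24 h, then 0.306 (0.109 to 0.754) at 48 h. With library totals, which raise every log2 fold by 0.19 at 24 h, the 24 h interval of Ackr2 includes 1. Ackr4 had 7 and 5 reads in the control libraries and 0 and 2 in the APAP libraries. At 24 h, with the APAP count set to the floor, the fold was at most 0.321, and the interval had an upper limit of 0.520. At 48 h the ratio was 0.350 (0.0333 to 2.14), or 0.525 with the floor. Of the receptors, the interval lay above 1 for 2 of 9 with a fold at 24 h (Ccr1 and Ccr2), against 13.0% of all genes tested, and for 1 of 10 at 48 h (Ccr2), against 12.2%. Set against the control library of the other time, it lay above 1 for 0 receptors at 24 h and 3 at 48 h. The interval lay below 1 for 2 of 9 at 24 h (Ackr4, and Ackr2 though not with library totals), against 14.8%. At 48 h it lay below 1 for 2 of 10 (Ccr3 and Ackr2), against 15.3%. The receptors' shares at 48 h were thus near those of all genes.

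Ccr3, the receptor of Ccl24, stood apart in 1 library. It had 37 reads in the 48 h control library and 1, 0 and 2 reads in the 24 h control library and the APAP libraries. The ratio at 48 h was 0.0473 (0.0055 to 0.183), and the ratio of the control libraries was 34.9 (5.89 to 1415). With the floor these were 0.0709 and 11.6. The eosinophil markers with a row, 3 of 5, namely Prg2, Ear1 and Ear2, summed to 11 and 12 reads in the control libraries and 26 and 43 in the APAP libraries, and Prg2 was at 0 in all libraries. The sum of the receptors changed 0.698-fold (0.517 to 0.940) at 48 h with Ccr3 and 1.06-fold (0.755 to 1.48) without it. Ccr4, Ccr9, Ccrl2 and Ackr1 had 1 to 10 reads, with no interval excluding 1 against the control library of its time, and the row of Ccr9 also holds an overlapping gene.

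**Figure D5:**
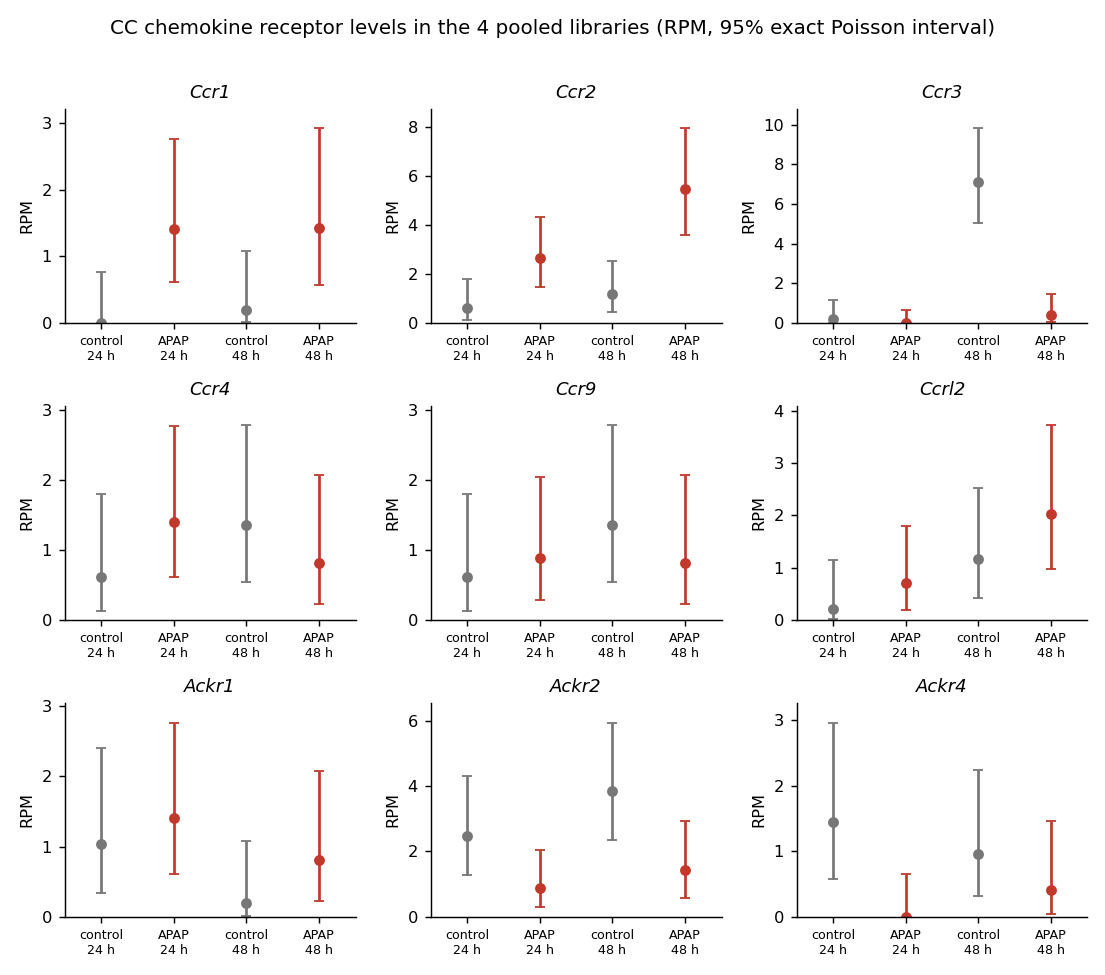
Level of 9 CC chemokine receptors with more than 3 reads in a library, in RPM on an axis of its own that starts at 0, with 95% exact Poisson intervals (gray, control; red, APAP). The points of Ccr2 were higher in both APAP libraries and those of Ackr2 lower, and Ccr3 was high in the 48 h control library alone. Between APAP and control of the same time, the plotted intervals of Ccr2 overlapped at 24 h but not at 48 h. Those of Ackr2 overlapped at both times.

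Markers of other cells of the liver were given the same measurement, since whole tissue holds them all. The sum of the 6 hepatocyte markers changed 0.877-fold at 24 h and 0.997-fold at 48 h. These folds depend on the scaling. In RPM the hepatocyte sum was 68868.6 in the control and 68736.1 in the APAP library at 24 h, and 71063.3 and 85215.5 at 48 h. The sum of the T and NK cell markers changed 0.611-fold (0.368 to 1.01) and 0.959-fold (0.572 to 1.61). The neutrophil markers, 7 of 8 with a row, summed to 16 and 18 reads in the control libraries and 253 and 182 in the APAP libraries, with 5 to 7 of them above 0 in each library. The fold of the sum was 11.8 (7.15 to 21.0) at 24 h, then 8.84 (5.44 to 15.3) at 48 h. Most of these APAP reads came from S100a8 (139 and 106) and S100a9 (75 and 38), and Cxcr2 had 9 and 0. Dendritic cell markers summed to 5, 5, 23 and 10 reads, with 13 of the 23 from Clec9a. Endothelial markers changed 1.08-fold and 1.03-fold, and markers of stellate cells and fibroblasts 1.19-fold and 1.65-fold at 24 h and 48 h. Genes within these lists differed, counted here over markers with a fold. At 24 h the interval lay above 1 for 2 of 6 hepatocyte markers (Apoa1 and Hnf4a) and 3 of 5 neutrophil markers (S100a8, S100a9 and Retnlg). It also lay above 1 for 1 of 2 dendritic cell (Clec9a), 2 of 5 endothelial (Lyve1 and Pecam1) and 1 of 5 stellate cell and fibroblast markers (Dcn). It lay below 1 for 4 of 6 hepatocyte (Alb, Ttr, Tat and Cps1), 1 of 4 T and NK cell (Nkg7) and 1 of 5 stellate cell and fibroblast markers (Lrat). The shares of all genes tested were 13.0% and 14.8%. At 48 h the interval lay above 1 for 2 of 6 hepatocyte (Ttr and Tat) and 4 of 5 neutrophil markers (S100a8, S100a9, Mmp8 and Csf3r). It also lay above 1 for 1 of 2 dendritic cell (Flt3), 2 of 5 endothelial (Lyve1 and Pecam1) and 3 of 5 stellate cell and fibroblast markers (Dcn, Col1a1 and Rgs5). It lay below 1 for 2 of 6 hepatocyte (Alb and Apoa1) and 1 of 5 endothelial markers (Stab2). The shares of all genes were 12.2% and 15.3%. With library totals the intervals of Tat and Lrat at 24 h and of Alb, Apoa1 and Stab2 at 48 h do not lie below 1. The part of these cell types in the levels of the CC chemokines was not tested.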

How the data were processed

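The 4 libraries were assigned to groups by their labels, and the numbers of mice come from the study's methods. The authors removed duplicate reads by unique molecular identifiers, trimmed them with cutadapt, mapped them to mm10 and deposited raw counts per gene from HTSeq. The aligner and the versions of these tools are not given in the sources used here, and the strandedness of counting is not stated. The deposited table also holds 4 columns of normalized values and the authors' log2 fold changes, p-values and FDR values from their comparisons, which were not used.

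Size factors were computed with DESeq2 1.42.0, with TMM from edgeR 4.0.16 as an alternative, in R 4.3.3. Folds and exact intervals were computed in Python 3.11.15 with scipy 1.17.1, numpy 2.4.6 and pandas 2.3.3, and plots with matplotlib 3.10.9. The interval of a fold is the Clopper-Pearson interval of the APAP share of the reads of 2 libraries, scaled by the size factors, and intervals of ratios of folds and of within-library ratios come from the noncentral hypergeometric distribution. A fold was called at 5 with a floor of 3 reads, over all genes with more than 3 reads in 1 of the 2 libraries. No count model was fitted, because each group has 1 library. The last 300 bases of transcripts were compared by blastn 2.17.0. The steps were tested on simulated data.

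All members were named, and other CC chemokines and receptors were named where they had more than 3 reads in a library, except 1 receptor that is not reported here. Members and lists were chosen with earlier results of these data known. The ratios of members to marker sums and the receptor sum without Ccr3 were added after the values had been seen.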

Additional observations from a re-analysis of the deposited data

Results flagged for a closer look

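Ccl9 was the 1 member of the 9 whose interval for the ratio of the fold at 48 h to the fold at 24 h excluded 1, and it was the 1 of 23 such ratios computed for members, other CC chemokines and receptors, with no adjustment for their number. The ratio was 0.820 (0.672 to 0.9997), from folds of 1.08 at 24 h and 0.887 at 48 h. It was 0.808 (0.663 to 0.985) with TMM size factors and 0.866 (0.710 to 1.06) with library totals, under which the interval includes 1. The interval covers counting error in 4 libraries and the difference between mice was not measured.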

How the results depend on the processing

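The number of members at least 5-fold higher at 24 h was 1 and became 2 without a floor and with the sum of both control libraries, and 0 with a pseudocount of 1, a floor of 10 reads or a lower limit of at least 5. At 48 h it was 1 and became 2 with library totals or a threshold of 4-fold, and 3 with a pseudocount of 1 or the sum of both control libraries. The number of members with an interval above 1 at 48 h was 4 and became 2 among members with at least 20 reads. The median log2 fold at 48 h was 0.81 and became 0.17 without a floor, over 5 members. At 24 h the median was 0.70 and lay between 0.083 (control library of the other time) and 1.50 (at least 20 reads, 3 members), with 0.30 for a floor of 10 reads, and at 48 h it reached 1.89 with a pseudocount of 1. The number of members with an interval above 1 at 24 h was 3 and became 4 with library totals or the sum of both control libraries, and 2 among members with at least 20 reads. The number of receptors with an interval above 1 was 2 at 24 h and 1 at 48 h, and became 0 and 3 with the control library of the other time. At 48 h it became 2 with the sum of both control libraries, an alternative chosen after seeing the data. Of the values of single members under the alternatives, 100 lay within the counting interval of the main setting, 8 lay outside it and 0 reversed a called direction. This tally is lenient, since an interval without an upper limit holds any rise. A reversal could be counted only for a fold whose main interval excluded 1, and alternatives that gave no fold were left out. The fold of Ccl2 at 48 h was 5.51 with a floor of 10 reads, and that of Ccl7 was 1.12 at 24 h and 1.49 at 48 h. Control counts of 0 to 6 reads limit the folds of Ccl2, Ccl3, Ccl4, Ccl7 and Ccl12, and that of Ccl5 at 24 h. Beyond what each setting changes by its construction, the cause was not tested. No paired analysis was possible because each group has 1 library, and no library could be left out.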
